A study of Mus musculus with 33 samples.

Results

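The genes described here carry out or control fatty acid oxidation, the breakdown of fatty acids for energy, and its products feed ketogenesis in the liver. They are Cpt1a, Cpt2, Acadm, Acadl, Acadvl, Ehhadh, Ppara and Angptl4. They were taken by symbol from the annotation of the Affymetrix MGU74Av2 mouse array, and all 8 genes had at least 1 probe set. Together they had 13 probe sets, out of 12422 probe sets and 8251 genes with a probe set of their own on the array. No probe set was listed under an older name of a member.

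RNA from whole liver and whole lung of fetal and newborn mice was hybridised to 33 arrays in 11 groups of 3. The strain is C57B/6J by the study's methods; the labels spell it in several ways and leave it out for 1 array. The labels name no altered gene in any group. Livers came from mice of room air at fetal day 21 (F21) and at 2 h and 6 h after birth. Lungs of 10% oxygen came from F21 fetuses whose dam had been exposed for 12 h, and from pups born into 10% oxygen and taken at 2 h and 6 h. Lungs of room air came from F21 fetuses and from pups at 2, 6, 12 and 24 h. The design gives 3 mice for each time point, so that p-values rest on the spread between single animals. That spread is pooled over all groups fitted together, not only the groups compared. Whether mice of a group were littermates is not given in the sources used here, and no feeding record of the pups was used.

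In fatty acid oxidation, the carnitine shuttle carries long-chain fatty acids into mitochondria, and chain-specific acyl-CoA dehydrogenases then begin each round of shortening. In liver the resulting acetyl-CoA is turned into ketone bodies, a fuel for other organs during fasting and the suckling period. The nuclear receptor PPARalpha, encoded by Ppara, raises transcription of many of these genes when fatty acids reach the cell. The lung uses fatty acids as fuel and as building blocks of surfactant.

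Values are signals of the Affymetrix MAS5 software with each array scaled to a target intensity of 100. They can be compared between arrays for 1 probe set, but not between probe sets. Signals under 10 were raised to 10 before log2 was taken, and a probe set was tested where it ranked in the top 40% of signals on 3 or more of the arrays fitted. Differences are log2 differences with their standard error (SE), tested in limma with Benjamini-Hochberg adjustment over all probe sets tested, and called at an adjusted p under 0.05. Of the 13 probe sets, 7 were tested in liver, 7 in lung and 8 in the fit of both organs. The second Cpt2 probe set, both of Acadvl, that of Ehhadh and the Angptl4 probe set 161518_r_at passed the filter in no fit.

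The tissues carried their own markers. The summed signal of 8 hepatocyte markers was 108053 to 136759 in livers. In lungs it was 101.6 to 507.4, apart from 1 F21 lung of 10% oxygen with 3100.9. The summed signal of 7 lung epithelial markers was 319.0 to 555.5 in livers and 23139 to 78886 in lungs. The Gapdh 3′ to 5′ signal ratio, which rises as RNA degrades, ranged between 1.30 and 1.86 in livers. In lungs it ranged between 1.21 and 9.40 under 10% oxygen and between 0.734 and 1.15 in room air. Across probe sets, arrays of 1 group correlated with a Pearson's r of 0.867 to 0.895 in livers. In lungs r was lower under 10% oxygen (0.749 to 0.825) than in room air (0.896 to 0.950). RNA was taken from whole organs, so that fewer cells of a type and less RNA per cell cannot be told apart.

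Cpt1a encodes the liver form of carnitine palmitoyltransferase 1, which loads long-chain fatty acids onto carnitine at the outer mitochondrial membrane and is the controlled step of their entry. The gene lies at chr19:3322326-3385735 of GRCm38.p6. The RefSeq promoter window used here is set at the start of a transcript that begins inside that span, and so is the window of Ppara. The 250 bases before that start (chr19:3323051-3323300, plus strand) are shown because Cpt1a and Angptl4 were the members called after birth and PPARalpha is known to act on both. PPARalpha with its partner RXR binds a pair of AGGTCA motifs set 1 base apart, and the stretch closest to that pair within the window is in capitals, which here reads in reverse.
Cpt1a, before the start of that transcript: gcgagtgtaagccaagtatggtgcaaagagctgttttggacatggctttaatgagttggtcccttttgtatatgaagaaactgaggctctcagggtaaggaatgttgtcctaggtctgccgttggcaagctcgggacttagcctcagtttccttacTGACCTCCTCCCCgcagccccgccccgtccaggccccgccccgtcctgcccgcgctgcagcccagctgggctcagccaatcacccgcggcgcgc

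The same search, on both strands from 250 bases before to 50 bases after the start, was run for the 7 members with a RefSeq window. Angptl4 was not in that table. The closest stretches of the members called in any comparison, with bases equal to the pair in capitals and read in the direction of the pair, were as follows.
Cpt1a: gGGgaggAGGTCA
Acadm: AGGTCtgAGcTCt
Ppara: AGGgCAcAcGctA
These are chr19:3323207-3323219 (minus strand), chr3:153944617-153944629 (plus strand of the genome, against the gene) and chr15:85735797-85735809 (plus strand). They have 4, 3 and 4 mismatches in the 12 bases of the pair. None of the 7 windows held the pair with 2 mismatches or fewer, and 3.86% of all 32851 windows did. With up to 3 mismatches 24.6% of all windows matched, and with up to 4 mismatches 79.8%. The letters describe these windows only and say nothing of binding.

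Cpt1a was higher in each newborn than in each fetal liver, but neither time passed the test. Its signal was 353.6, 313.5 and 366.9 in F21 livers, 486.5, 1330.5 and 1233.7 at 2 h, and 650.5, 1820.7 and 808.1 at 6 h. The first 2 h liver stood well below the others of its time. The means were 1017 ± 462 (SD, n = 3) at 2 h and 345 ± 27.8 at F21, a log2 difference of 1.43 (SE 0.38) that was not called in limma (adjusted p = 0.116). At 6 h the mean was 1093 ± 635, a difference of 1.52 (SE 0.38) that was not called either (adjusted p = 0.0732 in limma). Without the first 2 h liver the 2 h difference was 1.90 and was called (adjusted p = 0.00794 in limma).

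The Cpt1a signal in lungs of room air was 90.9, 131.0 and 134.4 at F21, 110.6, 179.7 and 138.8 at 2 h, and 185.7, 204.1 and 158.1 at 6 h. It was 206.6, 449.9 and 365.6 at 12 h, and 172.8, 412.3 and 329.3 at 24 h. All lungs from 6 h on were above all F21 lungs. At 12 h the mean was 341 ± 124 against 119 ± 24.2 at F21, and Cpt1a rose by log2 1.47 (SE 0.35, 2.77-fold, adjusted p = 0.0344 in limma). At 24 h the difference was 1.29 (305 ± 122, adjusted p = 0.0886 in limma), and without the first 24 h lung it was 1.66 and was called (adjusted p = 0.0389 in limma). The 2 h and 6 h differences were 0.26 and 0.63 and were not called.

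The 12 h call of Cpt1a rested on 5 of the 6 arrays compared, in the sense that it was lost without any one of them. It was lost without each F21 lung (adjusted p = 0.163, 0.0798 and 0.0734 in limma, in the order of the replicates) and without the second or the third 12 h lung (0.158 and 0.130). The summed signal of 10 of 10 markers of striated muscle, heart included, was 925 to 2026 in 12 h lungs and 709 to 1061 in F21 lungs of room air. That of 8 erythroid markers was 14813 to 27280 in 12 h lungs and 31679 to 37096 in F21 lungs. The part of either in the result was not tested.

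In lungs of 10% oxygen the Cpt1a signal was 152.0, 155.6 and 128.0 at F21, 86.5, 171.1 and 75.8 at 2 h, and 179.6, 199.5 and 118.6 at 6 h. The groups overlapped at both times, and the differences of -0.48 at 2 h and 0.16 at 6 h were not called. F21 lungs of 10% oxygen and of room air differed by 0.31 (SE 0.35, adjusted p = 0.660 in limma).

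**Figure D1:**
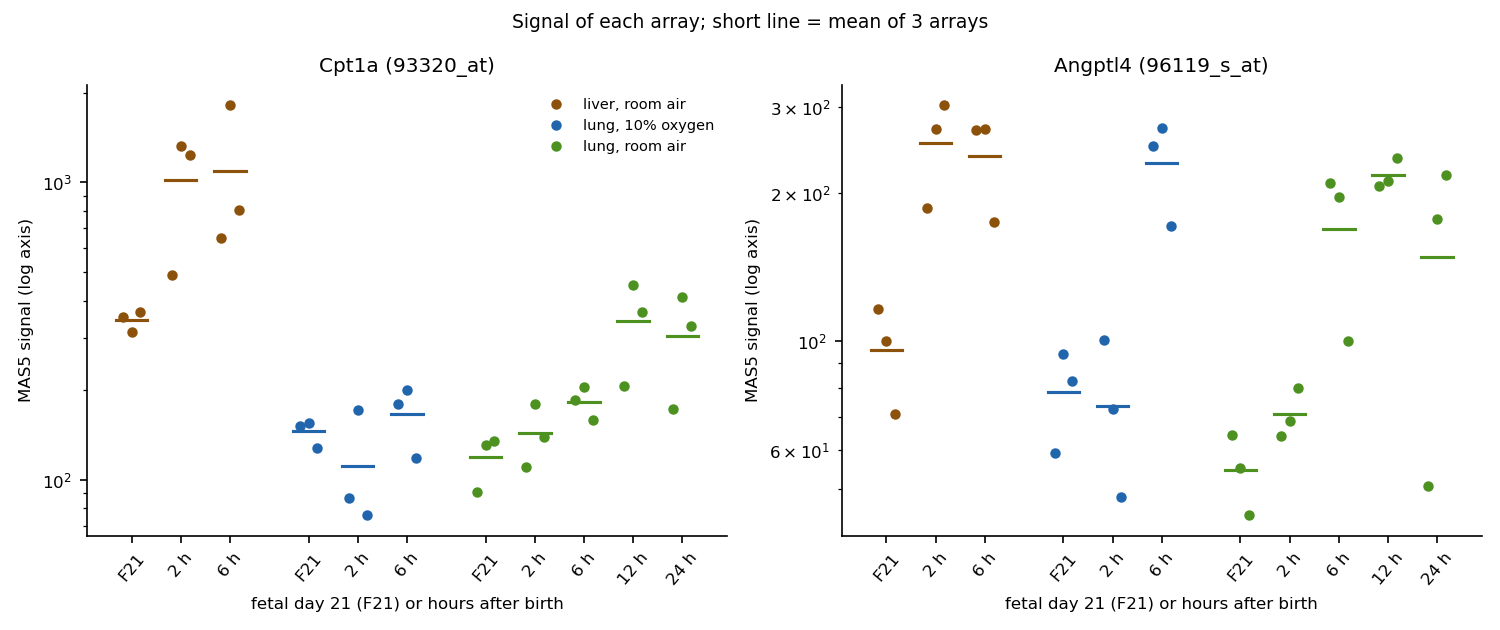
MAS5 signals (log axis) of Cpt1a and of Angptl4 probe set 96119_s_at in every array, for livers, lungs of 10% oxygen and lungs of room air by time from F21 to 24 h. Points are arrays and bars are group means; the 12 h lungs of room air lie above the F21 lungs in both panels, as do the newborn livers above the F21 livers.

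Angptl4 encodes a secreted protein that blocks lipoprotein lipase, the enzyme that releases fatty acids from blood lipoproteins, and is a well-known PPAR target. The gene lies at chr17:33774900-33781575. It had 4 probe sets, and 96119_s_at was the member most often called, in 4 of the 15 comparisons. In livers its signal was 116.3, 99.9 and 70.9 at F21, 186.5, 269.7 and 302.4 at 2 h, and 268.9, 270.6 and 174.8 at 6 h. All newborn livers were above all F21 livers. Angptl4 rose by log2 1.40 (SE 0.27, 2.64-fold, adjusted p = 0.0281 in limma) at 2 h, with 253 ± 59.8 in 2 h livers and 95.7 ± 23.0 in F21 livers. At 6 h it rose by 1.32 (SE 0.27, 2.49-fold, adjusted p = 0.0280 in limma), with a mean of 238 ± 54.8.

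Both liver calls depended on single arrays. At 2 h the call was lost without the second or the third F21 liver (adjusted p = 0.0668 and 0.113 in limma) and without the second or the third 2 h liver (0.134 and 0.155). At 6 h it was lost without the second or the third F21 liver (0.0772 and 0.111) and without the first or the second 6 h liver (0.100 and 0.0866). The log2 difference stayed at 1.11 or more in each of these fits. The 2 newborn liver groups did not differ from each other in any call: between 6 h and 2 h the difference was -0.09 (95% interval -0.67 to 0.50) for Angptl4 and 0.09 (-0.74 to 0.91) for Cpt1a.

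This probe set read in lungs of room air 64.4, 55.0 and 44.1 at F21, 64.0, 68.5 and 80.3 at 2 h, and 210.1, 196.3 and 99.9 at 6 h. It was 207.1, 211.3 and 236.1 at 12 h, and 50.7, 176.8 and 217.9 at 24 h. The 6 h and 12 h lungs lay above all F21 lungs, while the first 24 h lung was within the F21 range. At 12 h the mean was 218 ± 15.7 against 54.5 ± 10.2 at F21, and Angptl4 rose by log2 2.02 (SE 0.42, 4.04-fold, adjusted p = 0.0148 in limma). That was the largest called rise of a member after birth.

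The 12 h call was lost without the third F21 lung (adjusted p = 0.0755 in limma) and without the second or the third 12 h lung (0.0508 and 0.0635). The 6 h difference of 1.57 (169 ± 60.0) was not called (adjusted p = 0.0711 in limma); without the third 6 h lung it was 1.91 and was called (0.0492). The 24 h difference was 1.21 (148 ± 87.1, adjusted p = 0.215 in limma), and without the first 24 h lung it was 1.87 and was called (0.0249). Angptl4 is also abundant in fat. The summed signal of 8 fat cell markers was 321 to 397 in 12 h lungs and 290 to 371 in F21 lungs, and Adipoq, which defines fat cells, read 4.5 to 26.5 in 12 h lungs and 2.4 to 16.4 in F21 lungs. The summed striated muscle and erythroid markers of the same lungs are given above for Cpt1a. The part of any of these tissues in the rise of Angptl4 was not tested.

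In lungs of 10% oxygen the signal was 59.2, 93.9 and 82.9 at F21, 100.2, 72.6 and 48.0 at 2 h, and 249.4, 271.0 and 171.8 at 6 h. The 6 h lungs were all above the F21 lungs, and the 2 h lungs were not. Angptl4 rose at 6 h by log2 1.55 (SE 0.42, 2.93-fold, adjusted p = 0.0261 in limma), with 231 ± 52.2 in 6 h lungs and 78.7 ± 17.7 in F21 lungs. The call was lost without the first or the third F21 lung (0.0887 and 0.0610) and without the first or the second 6 h lung (0.0802 and 0.0864). The summed signal of 7 lung epithelial markers was 53421 to 57630 in these 6 h lungs and 23139 to 46167 in the F21 lungs, and its part in the result was not tested. The 6 h changes under 10% oxygen and in room air differed by -0.02 (95% interval -1.25 to 1.20, adjusted p = 0.993 in limma).

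The other probe sets of Angptl4 did not all follow 96119_s_at. The suffixes _s and _f mark probes that may also match related transcripts, and _r marks a set with probes outside the usual design rules. Probe set 102114_f_at read 134.1, 79.2 and 74.3 in F21 livers, 135.8, 166.8 and 191.8 at 2 h, and 173.3, 135.1 and 187.3 at 6 h. Each newborn liver was above each F21 liver, with log2 differences of 0.82 at both times that were not called (adjusted p = 0.224 and 0.175 in limma). Room-air lungs read 138.8, 143.8 and 92.7 at 12 h and 70.7, 33.6 and 64.0 at F21, without overlap and not called (1.20, adjusted p = 0.663 in limma). Lungs of 10% oxygen read 67.4, 156.8 and 41.3 at 6 h and 83.8, 56.9 and 55.8 at F21. These groups overlapped, and the difference was not called.

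Probe set 96118_at did not follow them. Lungs of room air read 101.4, 55.6 and 32.3 at 12 h and 158.2, 121.8 and 14.2 at F21, a log2 difference of -0.20 (95% interval -1.90 to 1.51). In livers it read 54.5, 54.4 and 21.9 at F21, 17.6, 18.7 and 45.6 at 2 h, and 18.4, 20.9 and 16 at 6 h. All 6 h livers were thus below all F21 livers, the opposite order to that of 96119_s_at, and the probe set was not tested in the liver fit. Probe set 161518_r_at was under the floor of 10 in 6 of 9 livers and 16 of 24 lungs. In room air it read 19.5, 35.0 and 26.3 in 2 h lungs and 1.5, 1.9 and 5.9 in F21 lungs. With no filter on signal that log2 difference was 1.39, a size set by the floor, and was not called (adjusted p = 0.325 in limma). The calls of Angptl4 therefore came from 1 of its probe sets.

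**Figure D2:**
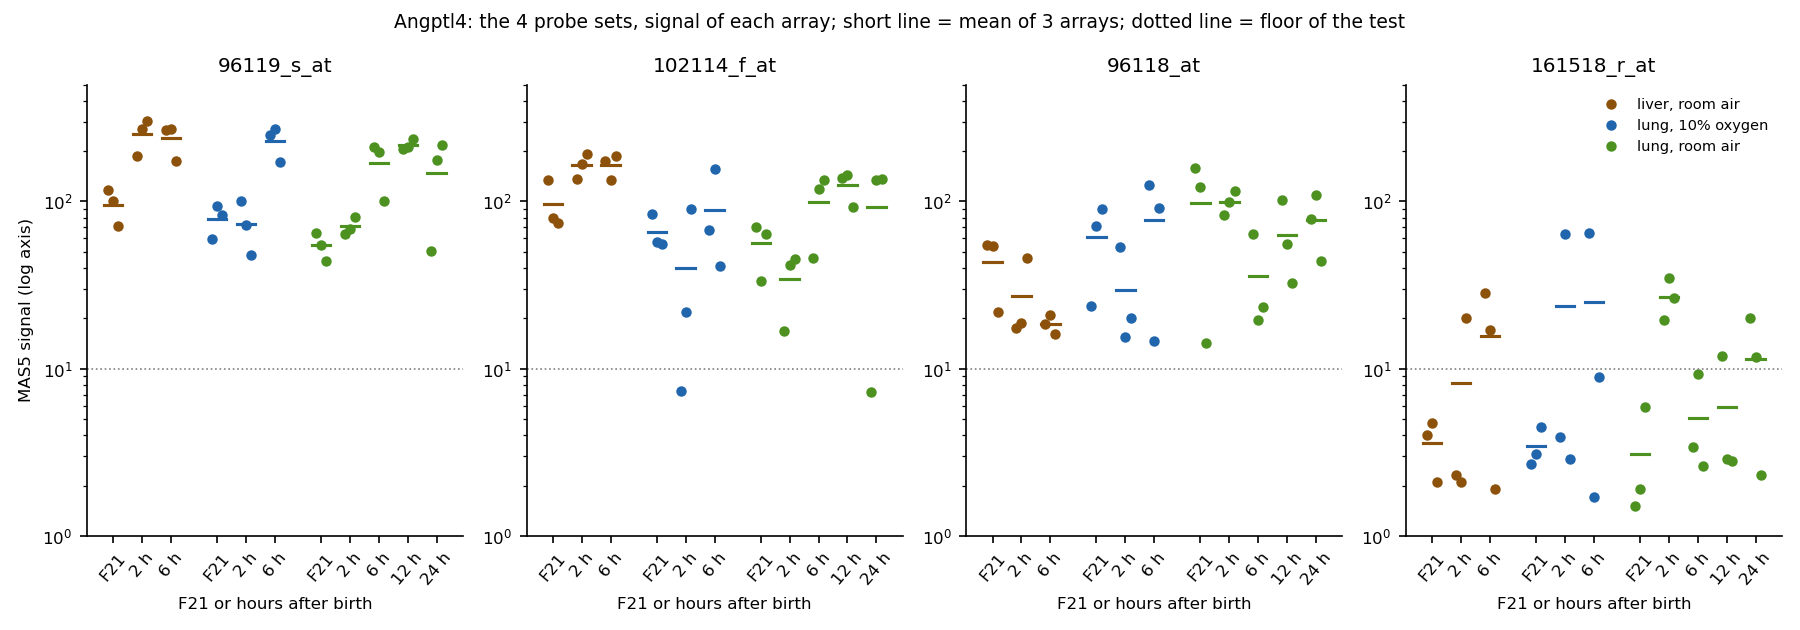
MAS5 signals (log axis) of the 4 Angptl4 probe sets in every array, for livers, lungs of 10% oxygen and lungs of room air by time. Points are arrays; 96119_s_at and 102114_f_at lie higher in newborn than in F21 livers, 96118_at lies lower in 6 h than in F21 livers, and 161518_r_at is mostly under the floor of 10, drawn as a line.

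Cpt2 encodes the enzyme of the inner mitochondrial membrane that takes fatty acids off carnitine again. It lies at chr4:107903982-107923589. Its probe set 95646_at read 414.7, 325.1 and 275.2 in F21 livers, 319.1, 408.7 and 406.7 at 2 h, and 277.3, 578.5 and 251.3 at 6 h. Lungs of room air read 230.0, 228.0 and 175.6 at F21 and 252.3, 231.2 and 232.5 at 12 h, and over all lungs 111.3 to 346.1. The groups overlapped in livers, and no difference after birth was called in either organ. The other Cpt2 probe set, 161978_r_at, was under 10 in 6 of 9 livers and 18 of 24 lungs. It read 31.1, 18.7 and 16.2 in F21 livers and at most 4.6 in newborn livers.

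The acyl-CoA dehydrogenases catalyse the opening oxidation of the mitochondrial cycle, Acadm for medium, Acadl for long and Acadvl for very long chains. Acadm, at chr3:153922353-153944643, read 808.9, 990.0 and 947.6 in F21 livers, 656.4, 792.2 and 776.1 at 2 h, and 740.0, 1085.5 and 961.9 at 6 h. The 2 h livers were all below the F21 livers, by log2 -0.30 (SE 0.16, adjusted p = 0.510 in limma), and the 6 h livers were not (0.01). Acadm in lungs of room air read 139.3, 147.6 and 36.9 at 2 h and 226.7, 153.7 and 401.6 at F21. The 2 h lungs were all below the F21 lungs, by log2 -1.40 (SE 0.42, 108 ± 61.7 at 2 h and 261 ± 127 at F21), and the difference was not called (adjusted p = 0.0620 in limma).

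That Acadm value leaned on single arrays. At 2 h 1 lung read 36.9 and the others 139.3 and 147.6. At F21 1 lung read 401.6 and the others 226.7 and 153.7. Both of these outlying signals widen the fall. In fits without 1 array, the difference was called only without the array of either group that read nearest the other group. Without the second F21 lung it was -1.73 (adjusted p = 0.0447 in limma) and without the second 2 h lung -1.75 (0.0337), both called. The later lungs of room air read 107.8 to 195.0 from 6 h to 24 h, with differences of -0.91, -0.83 and -0.81 at 6, 12 and 24 h that were not called. In lungs of 10% oxygen Acadm read 109.0, 191.0 and 208.5 at F21, 157.4, 165.9 and 137.2 at 2 h, and 140.3, 115.3 and 199.4 at 6 h, with overlap throughout. The 2 h changes under 10% oxygen and in room air differed by 1.31 (95% interval 0.07 to 2.55), which was not called (adjusted p = 0.350 in limma).

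Acadl, at chr1:66830839-66863309, read 66.4, 93.2 and 114.3 in F21 livers, 81.2, 105.4 and 143.3 at 2 h, and 81.0, 85.2 and 46.8 at 6 h, with overlap between all times. Lungs read 5.0 to 66.5, and Acadl was not tested in the lung fit. In 10% oxygen the 2 h lungs read 5.0 to 18.8, all below their F21 lungs (26.5 to 49.1). With no filter on signal that log2 difference was -1.35 and was not called (adjusted p = 0.244 in limma). Both Acadvl probe sets (chr11:70010183-70015428) were near the floor. Probe set 93334_at was under 10 in 5 of 9 livers and 19 of 24 lungs, and 161623_at in 6 of 9 livers and 17 of 24 lungs, so that these arrays give no usable level of Acadvl in either organ.

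Ehhadh encodes the bifunctional enzyme of peroxisomal fatty acid oxidation and lies at chr16:21761285-21787834. Its signal was 46.3, 4.0 and 56.5 in F21 livers, 55.3, 34.8 and 67.5 at 2 h, and 37.7, 161.5 and 60.2 at 6 h. The second 6 h liver was the highest, and the times overlapped. In lungs Ehhadh was under 10 in 14 of 24 arrays and at most 52.5. With no filter on signal, none of its differences was called, the lowest adjusted p in limma being 0.132.

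Ppara lies at chr15:85734910-85806851. Its signal was 308.1, 214.2 and 229.3 in F21 livers, 169.6, 308.6 and 270.8 at 2 h, and 215.3, 315.5 and 196.3 at 6 h. In lungs of room air it was 45, 85.2 and 65.4 at F21, and the later groups lay between 32.3 and 78.1. The newborn groups overlapped the F21 groups in both organs, and no change of Ppara after birth was called. The second 6 h liver gave the highest of the 6 h signals for Cpt1a, Cpt2, Acadm, Acadl, Ehhadh, Ppara and Angptl4 96119_s_at.

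**Figure D3:**
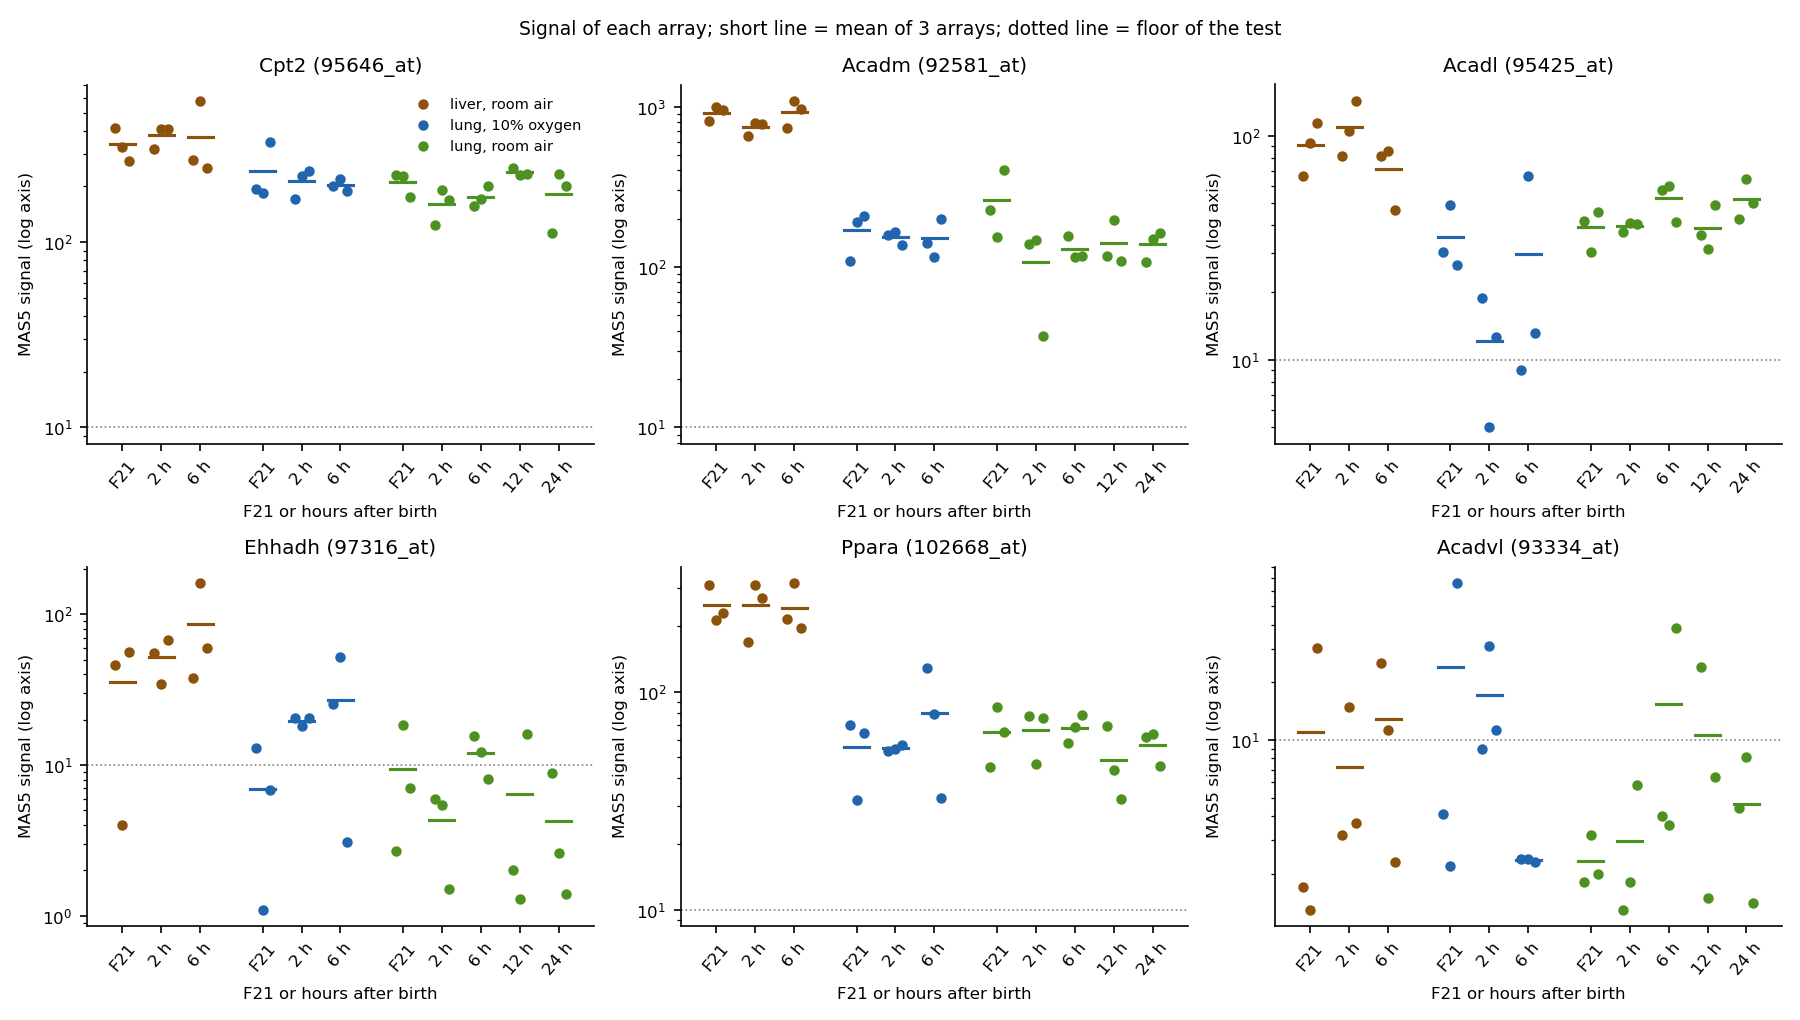
MAS5 signals (log axis) of Cpt2, Acadm, Acadl, Ehhadh, Ppara and Acadvl (93334_at) in every array, for livers, lungs of 10% oxygen and lungs of room air by time. Points are arrays; livers lie above lungs for Acadm and Ppara at each shared time, and Ehhadh and Acadvl are mostly at or under the floor of 10 in lungs.

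Counted over comparisons, few members were called after birth. Of the 7 probe sets tested in liver, 1 was called at 2 h, where 0.914% of all probe sets tested were, and 1 at 6 h, where 1.85% were; both times it was Angptl4 and higher. At 2 h 3 of 7 lay higher in every newborn than in every F21 liver (8.4% of all tested), namely Cpt1a and 2 Angptl4 probe sets. Between 6 h and 2 h livers limma called none (0.0176% of all), and none had an unadjusted p under 0.05 (6.54% of all). In 12 h lungs of room air 2 of 7 were called, both higher, where 1.34% of all were.

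At the other times in room air limma called no member. Of the 7, 1 had an unadjusted p under 0.05 at 2 h (17.8% of all, and 4.24% called), 2 at 6 h (11.7% of all, and 1.02% called) and 2 at 24 h (10.2% of all, and 0.577% called). Under 10% oxygen none of the 7 tested was called at 2 h (2.66% of all) and none of them had an unadjusted p under 0.05 in limma (17.2% of all). At 6 h under 10% oxygen 1 of 7 was called, Angptl4, where 6.31% of all were. In each of these comparisons the median log2 difference of all probe sets tested was within 0.05 of 0.

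**Figure D4:**
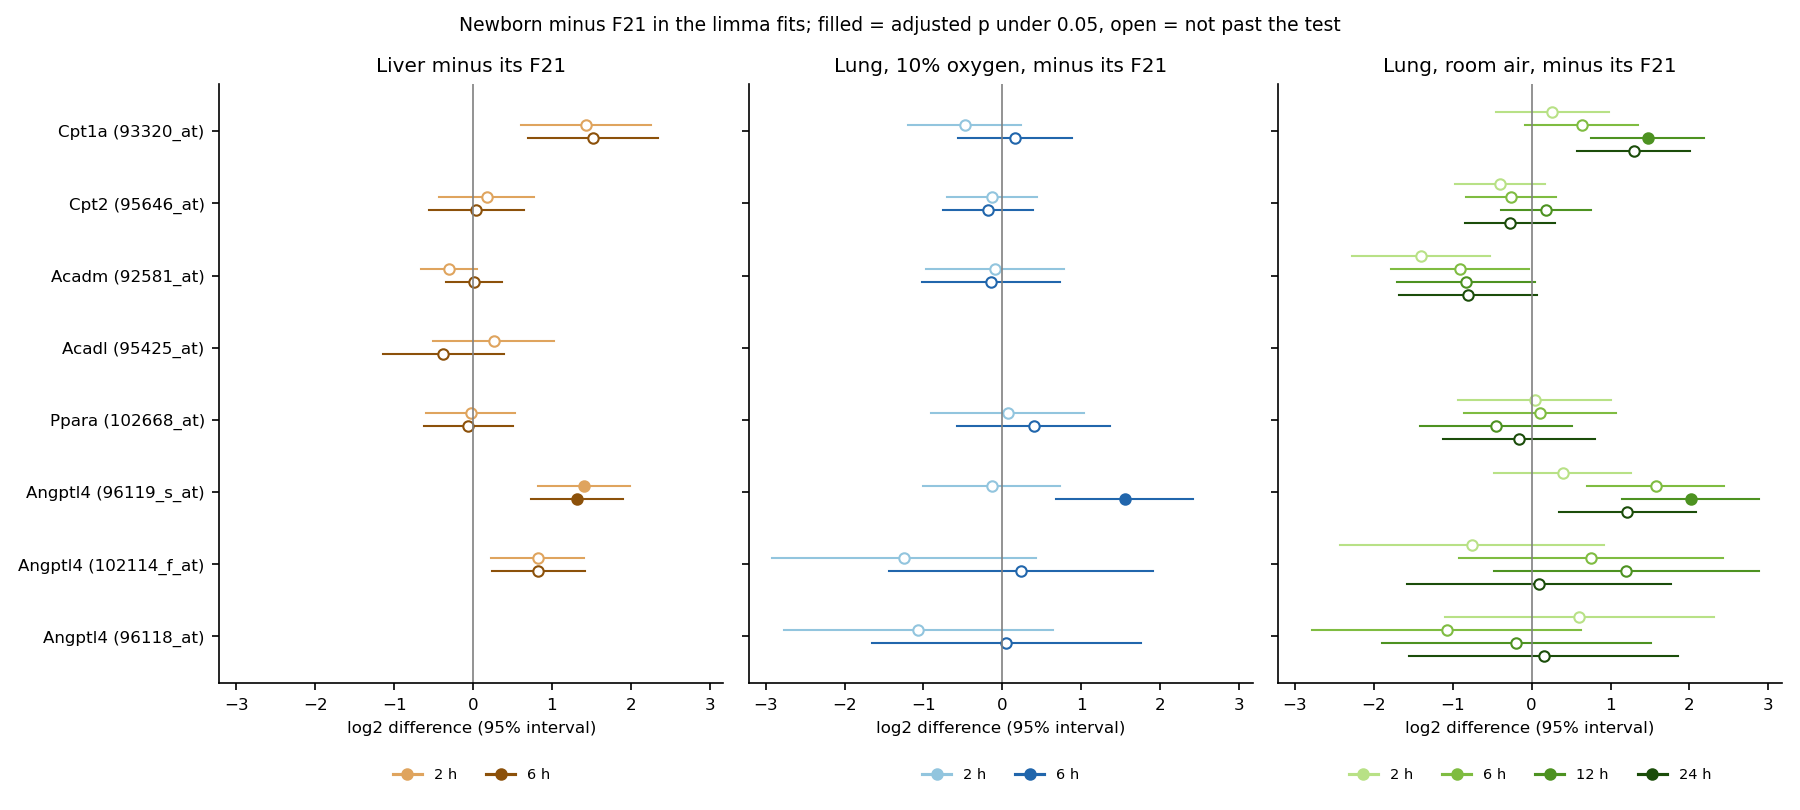
Log2 difference of newborn from F21 for each tested member probe set, in livers, lungs of 10% oxygen and lungs of room air, with the 95% interval of the limma fit. Filled points have an adjusted p under 0.05: Angptl4 96119_s_at in 4 comparisons and Cpt1a at 12 h.

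No member passed the test for a difference between 10% oxygen and room air, in its fetal level or in its change after birth. Between F21 lungs of 10% oxygen and of room air limma called none of 7, while 7.13% of all probe sets were called, and no member had an unadjusted p under 0.05 (22.4% of all). The differences were 0.31 for Cpt1a, 0.13 for Cpt2, -0.56 for Acadm, -0.27 for Ppara and 0.52 for Angptl4 96119_s_at. For the 2 h change, none of 7 was called as different between oxygen levels (0.476% of all), and 1 had an unadjusted p under 0.05 in limma (13.1% of all). For the 6 h change none was called (0.0144% of all) and none had an unadjusted p under 0.05 in limma (8.59% of all). The intervals were wide, as for Cpt1a at 6 h (-0.47, 95% interval -1.49 to 0.55), so that these p-values do not show equal courses.

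Set against F21 lungs of room air, F21 livers had higher signals of 3 of the 8 probe sets tested, while 28% of all probe sets were called in either direction and 11.9% were called higher. Ppara had 251 ± 50.4 in livers and 65.2 ± 20.1 in lungs, log2 1.97 (SE 0.41, adjusted p = 4.25e-04 in limma). Acadm had 916 ± 94.7 in livers and 261 ± 127 in lungs, log2 1.92 (SE 0.37, adjusted p = 1.63e-04 in limma). Cpt1a had 345 ± 27.8 in livers and 119 ± 24.2 in lungs, log2 1.56 (SE 0.38, adjusted p = 0.00223 in limma). All 3 were called in each fit without 1 array. The Gapdh 3′ to 5′ ratio was also higher in every liver than in every lung of room air, and its part in these differences was not tested.

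Acadl at 1.21 (adjusted p = 0.0752 in limma), Angptl4 96119_s_at at 0.80 (0.134) and Cpt2 at 0.67 (0.0825) were not called. Of the 8, 7 lay higher in every F21 liver than in every F21 lung of room air (19.2% of all tested), and 96118_at of Angptl4 was the exception. The median over the 8 was 1.004 and over all tested -0.14. Over all ages, liver and lung signals did not overlap for Acadm, with 656.4 to 1085.5 in livers and 36.9 to 401.6 in lungs, and for Ppara, with 169.6 to 315.5 in livers and 31.7 to 128.4 in lungs. They overlapped for Cpt1a, where livers read 313.5 to 1820.7 (median 650.5) and lungs 75.8 to 449.9 (median 165).

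The changes after birth were also compared between the organs in one fit. At 2 h limma called none of the 8 probe sets (0.93% of all), and 2 had an unadjusted p under 0.05 (12.5% of all). At 6 h it called none (0.196% of all), and none had an unadjusted p under 0.05 (8.67% of all). At 2 h the liver minus lung difference in the change was log2 1.17 for Cpt1a (95% interval 0.07 to 2.27, adjusted p = 0.363 in limma), whose signals lay above those of F21 in livers. It was 1.10 for Acadm (0.02 to 2.17, adjusted p = 0.384 in limma), whose differences from F21 were -0.30 in livers and -1.40 in lungs. For Angptl4 96119_s_at the liver minus lung difference was 1.01 (-0.12 to 2.15) at 2 h and -0.26 (-1.39 to 0.88) at 6 h. With no filter on signal, Cpt2 161978_r_at was called at 6 h (-1.71, adjusted p = 0.0404 in limma) and between the F21 organs (1.08, 0.00249), from signals near the floor.

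Ordered by group means, the 3 liver groups came first for Cpt1a, Cpt2 (95646_at), Acadm, Acadl, Ehhadh and Ppara. For Cpt1a the group means ran, from the highest, 6 h livers, 2 h livers, F21 livers, then 12 h, 24 h and 6 h lungs of room air. F21 livers (345 ± 27.8) and 12 h lungs of room air (341 ± 124) did not differ beyond their spread, nor did the 2 newborn liver groups. For Angptl4 96119_s_at the newborn livers (253 ± 59.8 and 238 ± 54.8), the 6 h lungs of 10% oxygen (231 ± 52.2) and the 12 h lungs of room air (218 ± 15.7) did not differ beyond their spread.

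Besides the members, 7 lists of genes that act beside them held 108 genes, of which 76 were on the array. They were the carnitine shuttle and fatty acid activation, mitochondrial oxidation, ketone bodies, peroxisomal and omega oxidation, nuclear receptors and other PPAR targets, lipoprotein lipase and lipolysis, and fatty acid synthesis. Of the ketone list 1 gene was tested in lung and none in liver.

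In liver, few genes of these lists were called after birth. At 2 h limma called no gene of the 7 lists (0.914% of all probe sets tested), and 15 of 60 had an unadjusted p under 0.05, against 12.1% of all. The 6 h livers had 4 of 60 called, against 1.85% of all. At 6 h Pnpla2, the lipase that starts the breakdown of stored fat, was the 1 of 9 tested lipolysis genes called. Pnpla2 rose by log2 1.38 (SE 0.21, adjusted p = 0.00358 in limma). It read 500.3, 862.3 and 823.2 at 6 h and 297.6, 268.9 and 252.6 at F21, without overlap. Srebf1, a transcription factor of fatty acid synthesis, was the 1 of 6 tested synthesis genes called. Srebf1 fell by 2.04 on the log2 scale (adjusted p = 0.00289 in limma), with 178 ± 31.9 in 6 h livers and 728 ± 74.6 in F21 livers.

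Both kept their calls without any one array. Fabp1, the fatty acid carrier of liver cells, fell by 0.75 (adjusted p = 0.00647 in limma) and was the 1 of 6 called in its list. Its call was lost without the second F21 liver (0.0506). Acaa2, the thiolase that ends a round of mitochondrial oxidation, fell by 0.55 (adjusted p = 0.0445 in limma), the 1 of 14 called, and was lost without any one array. In the same 6 h livers 8 hepatocyte markers had a median difference of -0.35 from F21 livers, and 4 of them had an unadjusted p under 0.05, though none was called. Of 8 erythroid markers 2 were called higher. The part of either in the falls of Fabp1 and Acaa2 was not tested. The median of the mitochondrial list was -0.26 at 2 h and at 6 h, against 0.003 and -0.004 over all tested. At the same times the medians were 0.16 and 0.30 for the carnitine list and 0.36 and 0.53 for the peroxisomal list. They were 0.19 and 0.45 for receptors and targets, 0.02 and -0.04 for lipolysis, and -0.37 and -0.33 for synthesis. The lists thus did not move in 1 direction.

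Of 35 carnitine, mitochondrial, ketone, peroxisomal and synthesis genes tested in lungs of room air, limma called none at any time. At an unadjusted p under 0.05 there were 11 at 2 h (17.8% of all tested) and 5 each at 6 h (11.7%), 12 h (11.9%) and 24 h (10.2%). Over all 7 lists 2 of 55 tested genes were called at 2 h, where 4.24% of all probe sets were. One was called at 12 h (1.34% of all) and none at 6 h (1.02%) or 24 h (0.577%). Under 10% oxygen 4 were called at 2 h (2.66%) and 3 at 6 h (6.31%). In room air Pnpla2 rose at 12 h by log2 1.27 (669 ± 313 in 12 h and 264 ± 55.5 in F21 lungs, adjusted p = 0.0344 in limma). In lungs of 10% oxygen it rose at 2 h by 1.18 (550 ± 135 in 2 h and 242 ± 56.1 in F21 lungs, adjusted p = 0.0326) and at 6 h by 1.08 (509 ± 89.1 in 6 h lungs, adjusted p = 0.0311). These 3 calls were lost in 5, 4 and 4 of 6 fits without 1 array, in the order given, and the last also against F21 lungs of room air. All 3 were lost with only the groups compared and with the methods' t-test, and those under 10% oxygen also with array weights. Lipe, a hormone-sensitive lipase, fell by 2.12 at 2 h in room air (adjusted p = 0.0320 in limma) and Esrra, a nuclear receptor of mitochondrial genes, by 1.07 (adjusted p = 0.0304), calls lost in 6 and 5 of 6 fits without 1 array. Lipe read 13.5 ± 1.20 in 2 h lungs, close to the floor of 10, and 58.8 ± 6.38 in F21 lungs. Its call was also lost with a pseudocount of 16 and with no filter. The call of Esrra was also lost with no filter and with the methods' t-test. The summed signal of lung epithelial markers was 30735 to 36438 in these 2 h lungs and 52330 to 67856 in F21 lungs, and that of erythroid markers 15059 to 19561 in 2 h and 31679 to 37096 in F21 lungs. That of 7 pancreas markers was 1151 to 1502 in 2 h and 658 to 773 in F21 lungs. Fat cell markers summed to 424 to 731 in 2 h and 290 to 371 in F21 lungs. For striated muscle markers the sums were 1028 to 1555 in 2 h and 709 to 1061 in F21 lungs. The part of these tissues in the falls of Lipe and Esrra, and in the low Acadm of the same lungs, was not tested.

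Of 35 genes of the same lists, limma called 3 between F21 lungs of 10% oxygen and of room air, where 7.13% of all probe sets were called. All 3 were lower under 10% oxygen, and Scd1, which makes monounsaturated fatty acids, differed most. F21 lungs of 10% oxygen read 113.1, 264.3 and 31.7, against 1555.3, 1596.3 and 854.5 in F21 lungs of room air, log2 -3.71 and called without any one array. The call was lost with the methods' t-test at an unadjusted p under 0.01. Lung epithelial markers summed to 23139 to 46167 in the F21 lungs under 10% oxygen, against 52330 to 67856 in F21 lungs of room air. Their median difference was -0.96 and all 6 tested had an unadjusted p under 0.05. Their part in the result was not tested. Gcdh, a dehydrogenase of amino acid breakdown, was lower by log2 -1.37 and kept its call without any one array. Cat, the peroxisomal catalase, was the third (-1.47). Of the receptor and target list, Plin2, a coat protein of lipid droplets, was lower (-1.25). Both lost their calls once Gapdh's 3′ to 5′ ratio was fitted beside the groups, and Plin2 also with no filter and in 5 of 6 fits without 1 array.

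Against its own F21 lungs Scd1 rose by 3.21 at 2 h and 2.28 at 6 h in 10% oxygen, while against F21 lungs of room air it was lower, by -0.50 and -1.43, and not called. The rise at 6 h was lost without the third F21 or the third 6 h lung (highest adjusted p = 0.0943 in limma). Both rises were lost with the methods' t-test at an unadjusted p under 0.01. The 6 h rise was also lost with array weights and with only the groups compared. At 2 h 3 of 6 lung epithelial markers were called higher too, with a median of 1.10, and their part was not tested. Txnip, which restrains glucose uptake, rose by 1.53 at 2 h and 1.66 at 6 h under 10% oxygen, and the 6 h call held without any one array. The 2 h call was lost without the third F21 or the second 2 h lung (highest adjusted p = 0.0799 in limma). Both calls were lost with array weights and against F21 lungs of room air, and the 6 h call also with the methods' t-test. Eci1, a mitochondrial isomerase, fell by 1.28 at 2 h, the 1 of 12 mitochondrial genes called, and lost the call in 5 of 6 fits without 1 array.

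Between F21 organs the lists differed more, where 28% of all probe sets tested were called and 11.9% were called higher. Of 14 mitochondrial oxidation genes, 7 were higher in livers and none lower. Acaa2 had 7618 ± 772 in livers and 1273 ± 171 in lungs (log2 2.58), and Hadhb, Echs1 and Etfb were higher by 2.31, 1.65 and 1.58. Of 9 carnitine and activation genes 4 were higher. Fabp1 was higher by at least 8.21, a size set by the floor of 10, since it read 5.8, 6.7 and 2.7 in the F21 lungs. Slc27a2, a fatty acid transporter and activating enzyme, was higher by 5.10, Slc27a5, its relative that also activates bile acids, by 2.99 and Acsl5, an acyl-CoA synthetase, by 1.84. Of 14 peroxisomal genes 6 were higher. They included Acaa1b, a peroxisomal thiolase (3.56), Phyh, which begins the breakdown of phytanic acid (2.29), and Ech1, an isomerase (1.43). Abcd2, a fatty acid importer, was also higher, by at least 2.51 since its mean in lungs (5.23) was under the floor. Acot1, an acyl-CoA thioesterase, was lower (-1.19) and is named after its value was seen.

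The other lists were mixed, beside the same 28% of all probe sets called and 11.9% called higher. Of 9 lipolysis genes 3 were higher, Apoc2 (5.63), Apoe (3.76) and Lpl (2.53). Of 12 receptor and target genes 3 were higher, namely Hnf4a, a nuclear receptor of liver cells (3.67), Lpin1 (1.39) and Plin2 (1.06). Rxra, the partner of PPARalpha, was lower (-1.43). The call of Lpin1 was lost in 2 of 6 fits without 1 array and that of Plin2 in all 6. Oxct1, which lets tissues outside the liver burn ketone bodies, was lower in livers, at log2 -1.43 (adjusted p = 0.0259 in limma), with 64.0, 78.3 and 14.4 in F21 livers and 89.3, 179.1 and 89.1 in F21 lungs. Its call was lost without the third F21 liver or the second F21 lung (log2 -1.89 to -0.67 without 1 array, highest adjusted p = 0.317 in limma), with only the groups compared and with the methods' t-test. Of 7 synthesis genes Srebf1 was higher (0.94) and Scd1 and Me1 were lower (-2.42 and -1.88). The call of Srebf1 was lost in 3 of 6 fits without 1 array (highest adjusted p = 0.130 in limma) and that of Me1 in 2 of 6 (0.135), while Scd1 kept its call. The median was 1.17 for the mitochondrial list, 0.83 for the carnitine list and -0.14 over all tested.

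**Figure D5:**
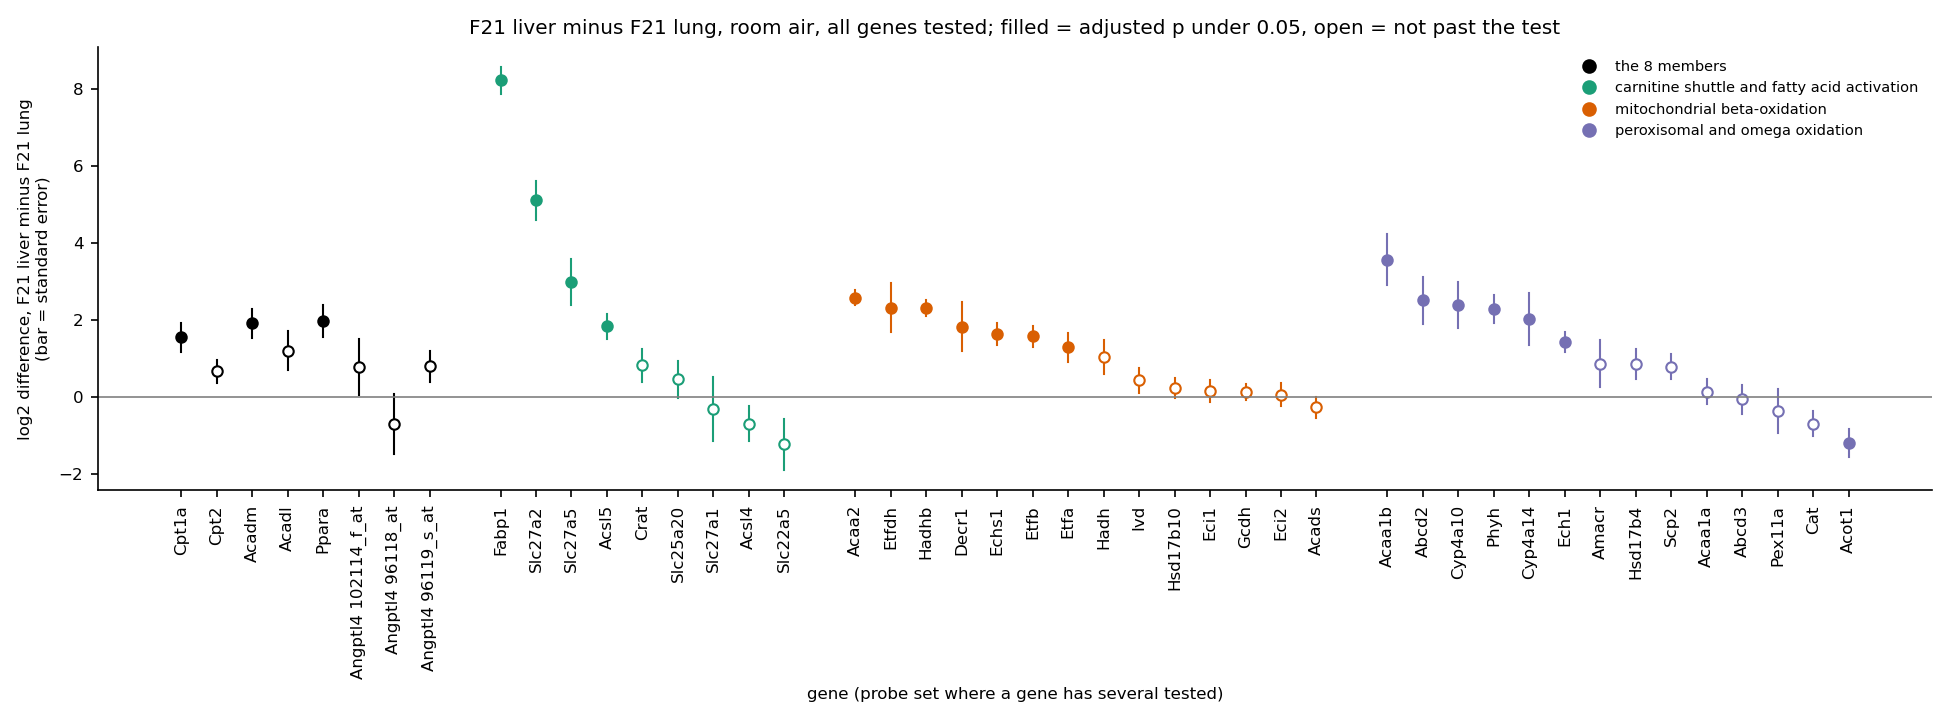
Log2 difference of F21 livers from F21 lungs of room air for the members and for all tested genes of the carnitine, mitochondrial and peroxisomal lists, with the SE as bars. Filled points have an adjusted p under 0.05; Acadm, Ppara and Cpt1a are the members called. The size of the Fabp1 difference is set by the floor of 10, under which all F21 lungs of room air lay.

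The change of Srebf1 was the 1 change of a listed gene called as different between the organs. Its 2 h change in liver was below that in lung by log2 -2.20 (adjusted p = 0.0107 in limma) and its 6 h change by -2.13 (adjusted p = 0.0242), while no member passed that test. The 2 h value was called without any one array, and the 6 h value was lost in 7 of 12 such fits.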

How the data were processed

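RNA of 9 livers and 24 lungs was measured on 33 arrays. The authors scaled each array in MAS5 to a target intensity of 100, and the deposited values are these intensity signals on a linear scale. The array's annotation names 10855 probe sets with 1 symbol, 396 with several and 1237 with none; 66 control probe sets were left out.

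Signals were raised to a floor of 10, taken to log2 and fitted with limma 3.58.1 (R 4.3.3; moderated variances with a trend on signal) in 3 fits: lung (8 groups, 6930 probe sets), liver (3 groups, 5691) and both (11 groups, 7636). Newborn groups were compared with the F21 group of their organ and oxygen level, F21 groups with each other, and changes by interaction terms. The methods' t-test was an alternative, beside other floors, pseudocounts, filters, normalizations, weights, samples and single arrays left out. The script was tested on simulated data. The number of arrays limits the precision.

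Every probe set of the members was named. Of each list the called genes were named, at most 4 by smallest p in a comparison. Members and lists were chosen with earlier results of these data known. Gene positions and promoter windows are from RefSeq, GRCm38.p6.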

Additional observations from a re-analysis of the deposited data

How the results depend on the processing

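Of 108 differences of members, 8 were called. Over their alternatives, 96 of 129 values kept the call and none of the 1874 values of members reversed; the calls between F21 organs were kept without any one array, and 20 of 48 such values of all 8 calls were lost. In the other direction, 22 alternatives gave a call to a difference that had none. The number of members called moved as follows. With no filter it was 0 in livers at 2 h and at 6 h and 1 in lungs of room air at 12 h. For the 6 h change, liver minus lung, it was 1 (Cpt2 161978_r_at). With the top 30% by median signal, which left 3 members tested, it was 1 in lungs of room air at 2 h, 12 h and 24 h and 0 in lungs of 10% oxygen at 6 h. With array weights it was 2 in livers at 2 h and at 6 h, 1, 1 and 2 in lungs of room air at 2, 6 and 24 h, and 0 in lungs of 10% oxygen at 6 h. With only the groups compared it was 2 in livers at 6 h, 0 in lungs of 10% oxygen at 6 h and 5 between F21 organs. Over all probe sets that setting called 85 rather than 437 in lungs of 10% oxygen at 6 h. Between F21 lungs of 10% oxygen and of room air it called 202 rather than 494. The methods' t-test at an unadjusted p under 0.01 gave 0 in livers at 6 h and 1 in lungs of room air at 12 h. After Benjamini-Hochberg it gave 0 in livers at 2 h and 6 h, in lungs of room air at 12 h and in lungs of 10% oxygen at 6 h. With a replicate block the count was 2 in livers at 2 h and at 6 h and 1 in lungs of room air at 24 h. The replicate numbers were not taken to pair the mice, since in 0 of 11 comparisons did every same-numbered pair deviate together. Without 1 array the count ranged from 0 to 2 in livers at 2 h, 0 to 1 at 6 h, 0 to 1, 0 to 1, 0 to 2 and 0 to 2 in lungs of room air at 2, 6, 12 and 24 h, and 0 to 1 in lungs of 10% oxygen at 6 h. Among the listed genes only Scd1 reversed, where lungs of 10% oxygen were set against F21 lungs of room air (-0.50 at 2 h, adjusted p = 0.650, and -1.43 at 6 h, adjusted p = 0.101, in limma). The cause was not tested. Of 43 called differences of listed genes taken by the naming rule, 26 were called without any one array. Signals near the floor of 10 limit Acadvl, Ehhadh and the _r probe sets.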

Other observations

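The probe sets whose group means ran most like those of 2 members were looked up as a description, with no test. Over the 8 lung group means, Angptl4 96119_s_at had the highest Pearson's r with Sf3b6, a part of the splicing machinery (0.984), Mllt11 (0.930) and Reep1 (0.928), of 6238 probe sets of other genes. Over the 11 group means of both organs, Cpt1a had the highest r with Hsd17b11, an enzyme of lipid droplets (0.954), Ctsl, a lysosomal protease (0.947), and Rnf10 (0.937), of 6864. The points share arrays and scaling, and so many probe sets set against 8 or 11 means give some high values in any case.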
